A study of Mus musculus with 12 samples.

Results

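Cytosolic ribosomal protein genes encode the proteins of the ribosome that works in the cytoplasm, as distinct from the ribosome of mitochondria. The members described here were all rows of the deposited table whose symbol began with Rpl or Rps and a digit, together with Rplp0, Rplp1, Rplp2 and Rpsa. Names of the kinase family Rps6k (9 rows) and names marked as pseudogenes with -ps (8 rows) were left out. This gave 88 of the 15170 genes in the table. Of these, 46 were core proteins of the large subunit and 31 were core proteins of the small subunit. A further 10 were paralogs or gene copies, and 1, Rps19bp1, encodes a protein that binds Rps19 and is not a subunit. The naming rule used no measured value, but the family was chosen with earlier results of these data known.

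The RNA came from blocks of mouse tumors, labelled as MC38, an established line of colon adenocarcinoma cells, and was sequenced after intravenous injection of BG136 (6 libraries) or of vehicle (6 libraries). BG136 is a soluble β-1,3/1,6-glucan, a branched sugar polymer. The genotype of both groups was given as wild type, and no dose, time, age, mouse strain or batch was given in the labels used here. Nothing in the labels ties each library of a group to an animal of its own, so the p-values speak only of the spread among these libraries, which may be technical.

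The counts of BG136 libraries 7 and 9 showed a smaller difference than sampling noise gives, so these were counted as 1 sample through their mean. The comparison was therefore of 5 BG136 samples with 6 vehicle samples. BG136 libraries 7 and 9 had 33231037 and 32956232 recovered reads, and each of the other 10 had between 14828786 and 18125931. Ribosomal protein genes took 5.12% to 7.12% of these reads. Vehicle libraries 11 and 12 stood apart from the other vehicle libraries. Many of the group differences below, though not all, are given with and without them. The MC38 label was set against the epithelial genes Epcam, Krt8, Krt18 and Krt19. Their summed FPKM was 0.258 to 27.5 in BG136 samples and 10.4 to 25.6 in vehicle samples, with Krt18 listed at 0 in BG136 replicates 4 and 6 and Krt8 listed at 0 in BG136 replicate 4.

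A ribosome is built from ribosomal RNA and one copy of most of these proteins, so cells make the proteins in matched amounts. Their mRNAs are among the most abundant in growing cells. Most begin with a C followed by a run of pyrimidines, the 5′ terminal oligopyrimidine (TOP) motif, through which the kinase mTOR and the RNA-binding protein Larp1 control their translation. Tumor cells use ribosomes heavily for growth, and unassembled Rpl5 and Rpl11 bind Mdm2 and so link ribosome assembly to p53.

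Runs of pyrimidines near the annotated start were counted, which is a looser measure than this motif. The count does not ask that the mRNA begin with a C, and a run may lie mostly before the start. Of the 88 members, 67 had 79 entries in a RefSeq promoter table of mouse build GRCm38.p6, which is not the authors' build and was used only for sequence. A run of at least 8 pyrimidines (C or T, on the gene's strand) reaching within 5 bases of the annotated start was present in 25 member entries (31.6%), against 9.72% of all 32851 entries in the table. The stretches below run from 25 bases before to 15 bases after the start. They are shown because they hold the longest runs among core members, outside a chromosome that was left out of the choice. Rps27 is added for its copy, described later. Capitals mark the pyrimidine run.
Rpl7a, chr2:26910782-26910821, plus strand: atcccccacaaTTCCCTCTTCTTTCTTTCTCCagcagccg
Rpl27a, chr7:109519170-109519209, plus strand: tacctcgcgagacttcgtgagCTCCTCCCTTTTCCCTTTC
Rpl34, chr3:130730323-130730362, minus strand: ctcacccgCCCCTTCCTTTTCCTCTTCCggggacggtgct
Rpl35, chr2:39005117-39005156, minus strand: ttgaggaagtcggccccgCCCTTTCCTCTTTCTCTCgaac
Rpl15, chr14:18270972-18271011, minus strand: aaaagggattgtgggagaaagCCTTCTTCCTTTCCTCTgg
Rpl13a, chr7:45128731-45128770, minus strand: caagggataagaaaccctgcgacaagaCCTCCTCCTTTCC
Rps27, chr3:90213634-90213673, minus strand: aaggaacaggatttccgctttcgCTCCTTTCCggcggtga

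The runs in these 6 core genes were 14 to 21 bases long, those of Rpl27a and Rpl13a going on past the end of the printed stretch, and the run of Rps27 was 9 bases long. In the same promoter windows (250 bases before to 50 after the start, both strands) the sequence CCGGAAG, the core of ETS-family binding sites, was found in 34.2% of member entries and 8.86% of all entries. AAGATGGC, which holds the core of YY1 sites, was found in 10.1% against 2.75%, and TATAAA in 10.1% against 13.6%. None of these motifs contains another. A match describes the letters in the window and was not tied to binding.

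Levels are given in FPKM, fragments per kilobase of gene scaled to library size, so that genes of different length can be set side by side. The median core gene had a mean of 804 FPKM over the 11 samples, against 6.48 FPKM for the median of all genes. Of the 77 core genes, 52 were among the 100 genes of highest FPKM and 71 among the highest 200. Rpl41, which encodes a very short protein of the large subunit, ranked first of all genes, with 3916, 5177, 3863, 3998 and 4187 FPKM in BG136 replicates 1, 2, 4, 6 and 7-9, and a lowest, median and highest vehicle value of 4281, 4892 and 5698 FPKM. Next among members were Rplp1 and Rps26. The lowest core genes were Rps15a, Rpl21 and Rpl22, at means of 89.5 ± 6.3, 112 ± 22 and 126 ± 20 FPKM in BG136 samples (SD, n = 5) and 104 ± 14, 112 ± 15 and 138 ± 21 FPKM in vehicle samples (SD, n = 6). Their FPKM rests on long implied gene lengths of 5136, 1856 and 2343 bases, against a median of 795 bases over core genes. The 47.3-fold range between the highest and lowest core level includes these differences in the length of the gene model.

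Most ribosomal protein genes had slightly lower FPKM in BG136 tumors than in vehicle tumors, and no gene passed the test. Of the 86 members that passed the filter on low values, 83 had a negative log2 difference and 3 a positive one, where 42.6% of all 11356 tested genes had a negative one and 57.4% a positive one. The median log2 difference was -0.16 over members and 0.02 over all tested genes. The median was -0.16 for the large subunit (50 of 52 tested genes lower) and -0.16 for the small subunit (33 of 33 lower). Without vehicle replicates 11 and 12, 60 members were lower and 26 higher, the member median was -0.06, and 45% of all genes were lower. Without BG136 replicate 7-9, 85 members were lower, with a median of -0.14, where 44% of all genes were. The members are read from the same libraries and move together, so their counts are not independent. Fewer cells of a type rich in these mRNAs and less of these mRNAs per cell cannot be told apart in tumor blocks.

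In limma's moderated linear model 0 members had an adjusted p (Benjamini-Hochberg) under 0.05, as did 0 of all genes tested (0%), and the lowest adjusted p of a member was 0.978. At an unadjusted p under 0.05, 14 members were lower, where 1.13% of all genes were, and 0 were higher, where 0.925% of all genes were. Without vehicle replicates 11 and 12 these were 4 members (0.784% of all genes) and 0 members (1.09%). With voom on recovered reads, 0 members passed and 28 were lower at an unadjusted p under 0.05 (1.71% of all genes). By the authors' deposited table, 46 members had a lower value at a p-value under 0.05 (3.28% of its genes), 0 a higher one (1.77%), and 0 a q-value under 0.05 (0.0593%), with a lowest member q of 0.177. That table entered BG136 libraries 7 and 9 as separate samples. The 95% intervals of the log2 difference had a median half-width of 0.22 over core genes, and 64 of the 77 core intervals held 0.

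**Figure D1:**
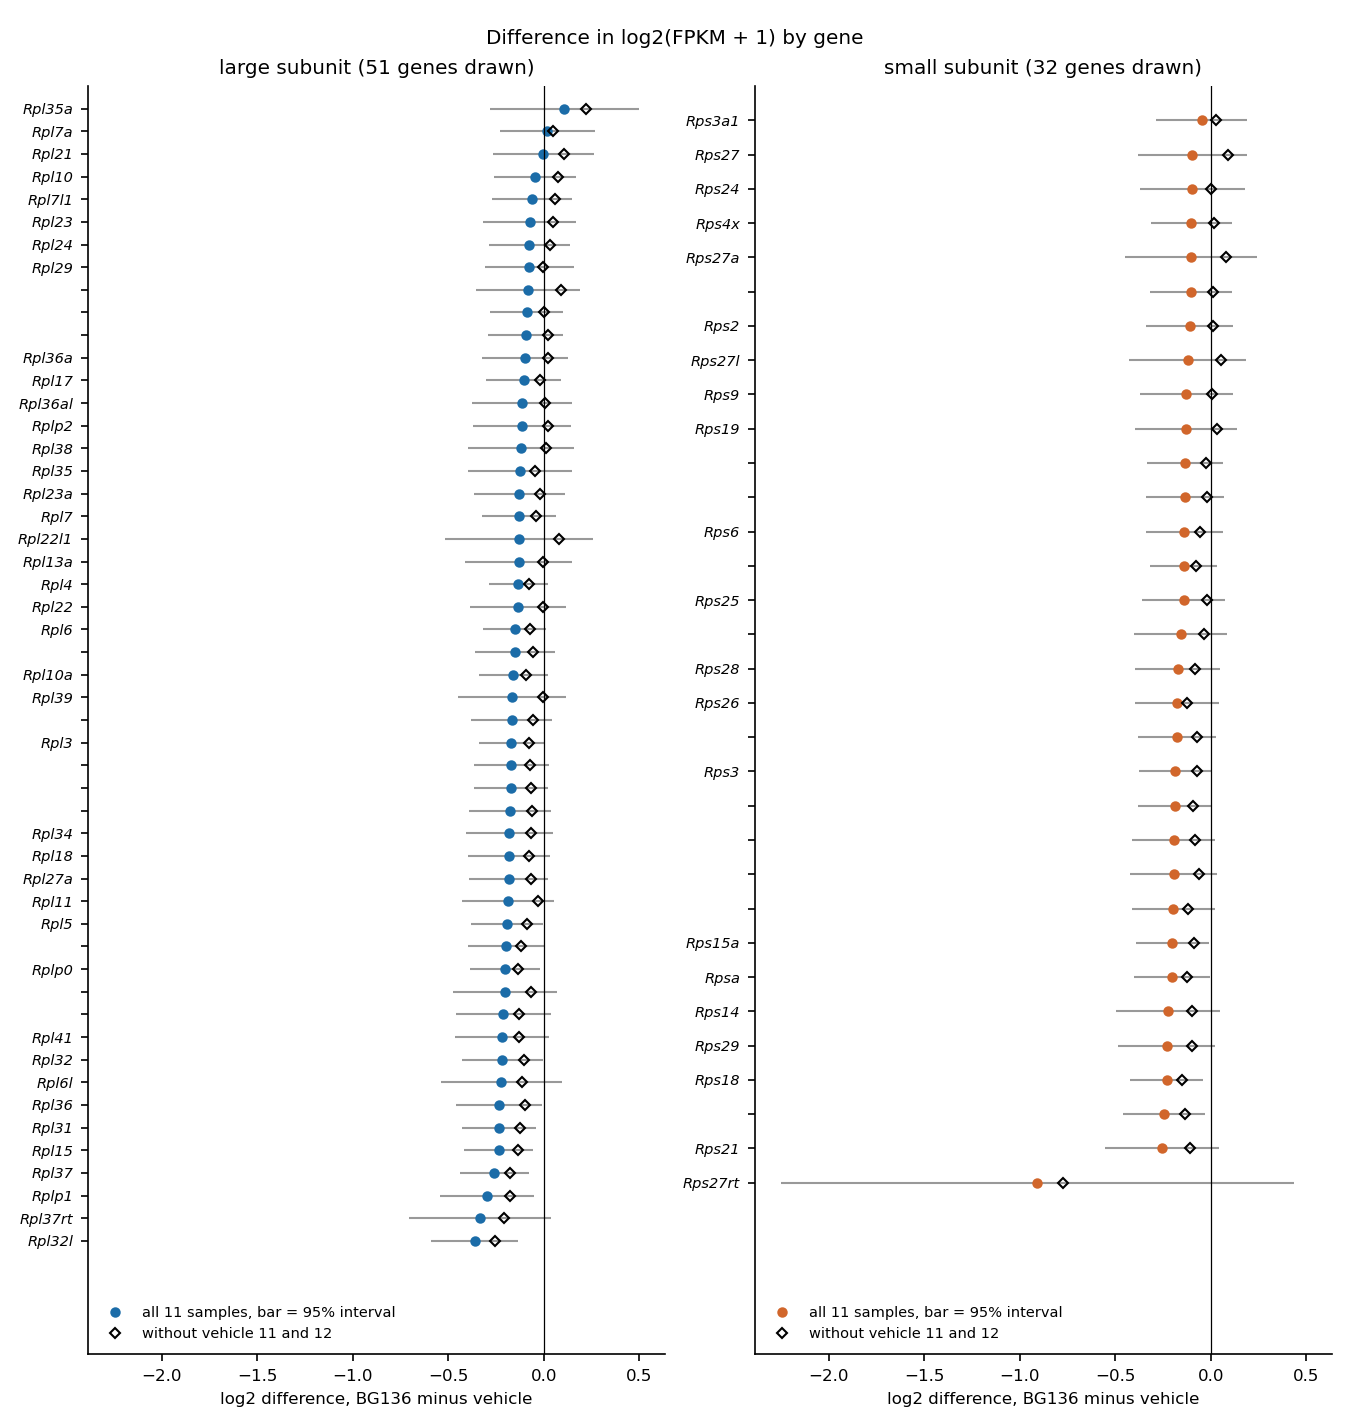
Log2 difference (BG136 minus vehicle, on log2(FPKM + 1)) of tested genes of the large subunit (left) and the small subunit (right), with names beside those described in the text. Filled circles with bars are estimates from all 11 samples with 95% intervals, and open diamonds are estimates without vehicle replicates 11 and 12. Circles lie left of 0 for 49 of 51 and 32 of 32 genes drawn, and diamonds for 36 and 23.

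Rpl37 and Rps18 were among the 3 members in which every BG136 sample lay below every vehicle sample. The same separation in that direction was found in 0.114% of all tested genes, and in 0.308% without vehicle replicates 11 and 12, where these 3 members were again the ones separated. Rpl37, of the large subunit, had 836, 792, 745, 840 and 839 FPKM in the BG136 samples, and 858, 962 and 1090 FPKM as the lowest, median and highest in vehicle samples. Its highest BG136 value and lowest vehicle value were close to each other, and its log2 difference was -0.26 (95% interval -0.44 to -0.08; limma adjusted p = 0.978). Rps18, which sits in the head of the small subunit, ran from 1283 to 1500 FPKM in BG136 samples and from 1501 to 1884 FPKM in vehicle samples, so its groups met almost without a gap. Without vehicle replicates 11 and 12 the differences of Rpl37 and Rps18 were -0.17 and -0.15, and the interval of Rps18 held 0.

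The P stalk, formed by Rplp0, Rplp1 and Rplp2, recruits elongation factors to the large subunit. Rplp0, its base, had 2058, 2217, 1952, 2067 and 2038 FPKM in BG136 replicates 1, 2, 4, 6 and 7-9, and a lowest, median and highest vehicle value of 2166, 2360 and 2742 FPKM. BG136 replicate 2 alone reached into the vehicle range, and the log2 difference was -0.20 (95% interval -0.39 to -0.02), and -0.14 without vehicle replicates 11 and 12, with an interval that held 0. Rplp1 had 2715, 2524, 2165, 2736 and 2521 FPKM in BG136 samples, against 2674, 2994 and 3921 FPKM as lowest, median and highest in vehicle samples. Its difference of -0.30 was -0.18 without vehicle replicates 11 and 12. Rplp2, which pairs with Rplp1, had 955 to 1320 FPKM in BG136 samples and 1005 to 1490 FPKM in vehicle samples, with a difference of -0.11 that turned to 0.02 without those vehicle replicates.

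Rpl5 and Rpl11 enter the large subunit with the 5S ribosomal RNA. Rpl5 had 521, 496, 488, 514 and 466 FPKM in BG136 samples, and 512, 541 and 689 FPKM as lowest, median and highest in vehicle samples, a log2 difference of -0.19 (95% interval -0.38 to -0.01), which was -0.09 without vehicle replicates 11 and 12, with an interval that held 0. Rpl11 had 275, 319, 249, 277 and 274 FPKM in BG136 samples, and 274, 292 and 398 FPKM in vehicle samples, a difference of -0.18 (95% interval -0.43 to 0.06) that was -0.03 without vehicle replicates 11 and 12. The values of Rpl11 in vehicle replicates 11 and 12, 385 and 398 FPKM, lay above all other samples. Of the genes through which these proteins act, Mdm2 had 12.6 ± 0.9 FPKM in BG136 and 11.6 ± 1.2 FPKM in vehicle samples, and the p53 target Cdkn1a had 35.3 ± 7.2 and 33.7 ± 3.3 FPKM (SD, n = 5 and n = 6). Both differences, 0.12 and 0.05, had intervals that held 0. Without vehicle replicates 11 and 12 both were 0.04.

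Other proteins of the large subunit had log2 differences of -0.24 to -0.04. Rpl3, which lies near the peptidyl transferase centre, had 761 ± 30 FPKM in BG136 samples and 858 ± 86 FPKM in vehicle samples. Rpl10, which joins late in assembly, had 903 ± 70 and 937 ± 127 FPKM in the same order, and its difference of -0.04 turned to 0.07 without vehicle replicates 11 and 12. Rpl38, known in mouse development for its part in translating Hox mRNAs, had 486 ± 89 FPKM in BG136 samples and 526 ± 81 FPKM in vehicle samples. Rpl39, which lines the exit tunnel of the nascent chain, had 281 ± 35 and 318 ± 63 FPKM. Rpl15 had 243, 225, 210, 248 and 230 FPKM in BG136 samples, and 246, 259 and 316 FPKM as lowest, median and highest in vehicle samples. Its BG136 and vehicle values overlapped only through BG136 replicate 6, at 248 FPKM, and its difference was -0.24 (95% interval -0.42 to -0.06). Without vehicle replicates 11 and 12 the differences were -0.08 for Rpl3, 0.01 for Rpl38, -0.0047 for Rpl39 and -0.14 for Rpl15.

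In the small subunit, Rps6, the protein phosphorylated by S6 kinases, had 577, 730, 591, 578 and 540 FPKM in BG136 samples, and 594, 636 and 745 FPKM as lowest, median and highest in vehicle samples. BG136 replicate 2 was the one BG136 sample within the vehicle range. Rps14 and Rps19, both mutated or lost in human red cell disorders, had 927 ± 150 and 371 ± 49 FPKM in BG136 samples and 1082 ± 162 and 408 ± 74 FPKM in vehicle samples. The difference of Rps19, -0.13, was 0.03 without vehicle replicates 11 and 12. Rps3, which also acts in DNA repair, had 467 ± 26 FPKM in BG136 samples and 534 ± 67 FPKM in vehicle samples. Rpsa, also known as a laminin receptor, had 970 ± 110 and 1116 ± 105 FPKM in the same order, a difference of -0.20 whose interval ended just below 0. Rps26 had 2279 ± 298 FPKM in BG136 samples and 2566 ± 214 FPKM in vehicle samples, and Rps4x 897 ± 61 and 968 ± 134 FPKM. Rps27, a zinc finger protein, had 551 ± 56 FPKM in BG136 samples and 597 ± 127 FPKM in vehicle samples, and Rps27a, made as a fusion with ubiquitin, 487 ± 98 and 525 ± 120 FPKM. Their differences of -0.10 each were 0.09 and 0.08 without vehicle replicates 11 and 12. Rps21 had 278 ± 55 FPKM in BG136 samples and 331 ± 56 FPKM in vehicle samples, and Rps3a1 1084 ± 187 and 1113 ± 108 FPKM. Without vehicle replicates 11 and 12 the differences of Rps6, Rps14, Rps3 and Rps21 were -0.05, -0.10, -0.07 and -0.11, those of Rpsa and Rps26 were both -0.12, with intervals that held 0, and those of Rps4x and Rps3a1 were 0.02 and 0.03.

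The level of the whole family differed between samples of the same group. For each sample the mean departure of the 77 core genes was taken, on log2(FPKM + 1), from each gene's mean over the 11 samples. It was -0.12, 0.11, -0.21, -0.09 and -0.11 in BG136 replicates 1, 2, 4, 6 and 7-9, and -0.07, -0.05, -0.07, 0.03, 0.28 and 0.29 in vehicle replicates 1, 2, 3, 7, 11 and 12. The groups overlapped: BG136 replicate 2 lay above 4 vehicle samples, and only BG136 replicate 4 lay well below the other BG136 samples. Over the 86 tested members, BG136 replicate 4 was the lowest sample for 50, where it was the lowest for 5.11% of all genes. Vehicle replicates 11 and 12 were the 2 highest samples for 66 of the 86 members (76.7%), against 12.6% of all genes.

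**Figure D2:**
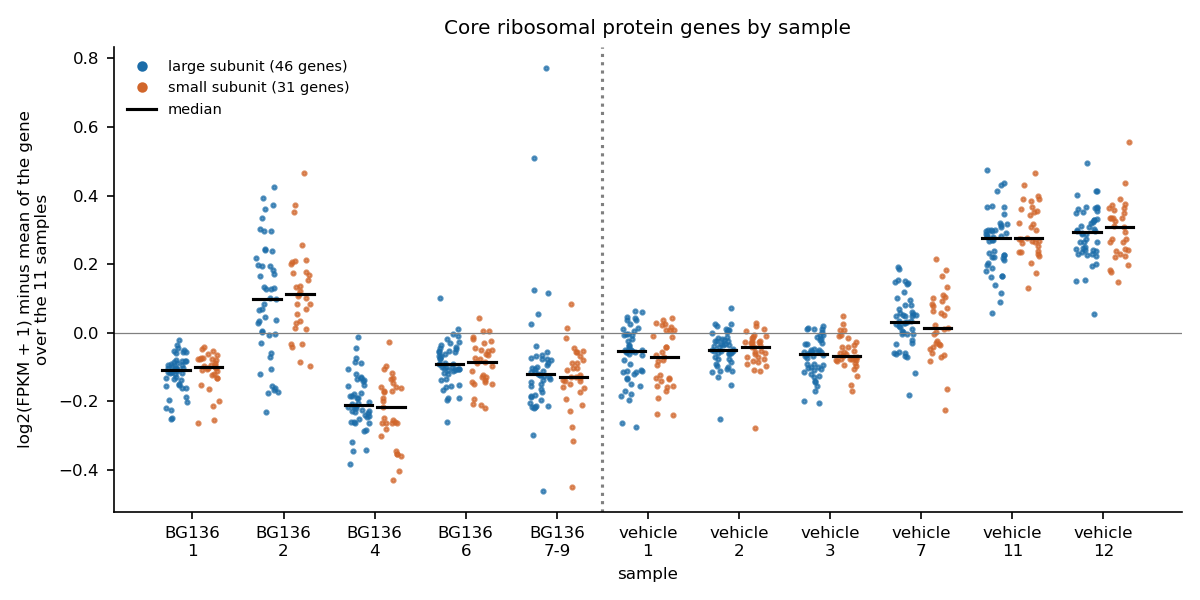
Departure of each core gene from its mean over the 11 samples (log2(FPKM + 1)), by sample, BG136 left and vehicle right of the dotted line. Points are genes of the large subunit (46, blue) and the small subunit (31, orange), and black bars are medians; vehicle 11 and 12 stand highest, BG136 4 lowest, and the points spread most in BG136 2 and BG136 7-9.

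Both subunits moved together. The summed FPKM of large subunit core genes was 1.457 to 1.504 times that of small subunit core genes in BG136 samples and 1.473 to 1.504 times in vehicle samples. The mean departure of the large minus that of the small subunit lay between -0.02 and 0.04 in BG136 samples and between -0.03 and 0.01 in vehicle samples. All members together held 16.6%, 17.7%, 15.5%, 16.9% and 16.2% of the summed FPKM in BG136 replicates 1, 2, 4, 6 and 7-9. In vehicle replicates 1, 2, 3, 7, 11 and 12 they held 17.3%, 17.2%, 16.9%, 17.7%, 19.0% and 19.5%. The mean share was 16.6% ± 0.8 over BG136 samples (SD, n = 5) and 17.9% ± 1.0 over vehicle samples (SD, n = 6), and 17.3% ± 0.3 (SD, n = 4) in vehicle samples without replicates 11 and 12.

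**Figure D3:**
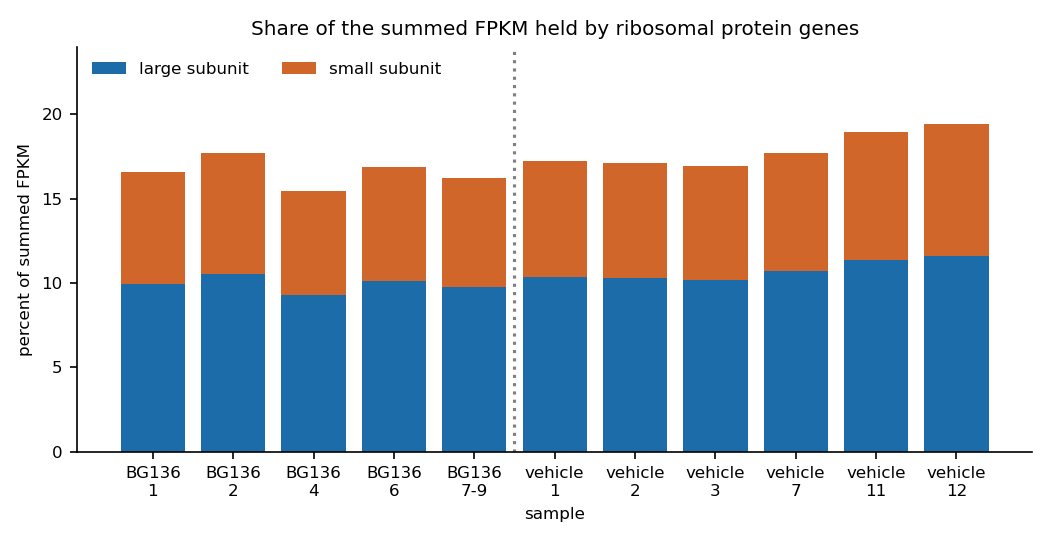
Percent of the summed FPKM of each sample held by ribosomal protein genes, stacked for the large subunit (blue) and the small subunit (orange), BG136 left and vehicle right of the dotted line. The bars reach 15.5% to 17.7% in BG136 samples and 16.9% to 19.5% in vehicle samples, with vehicle 11 and 12 highest.

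Several other measures moved with the family in vehicle replicates 11 and 12, and their part in the difference was not tested. The mean departure of 22 oxidative phosphorylation genes was -0.14, 0.05, -0.14, -0.10 and -0.03 in BG136 replicates 1, 2, 4, 6 and 7-9, against 0.35 and 0.25 in vehicle replicates 11 and 12 and -0.17 to 0.03 in the other vehicle samples. All 22 were lower in BG136 samples (42.6% of all genes), with a median log2 difference of -0.14, near the -0.16 of the family. Without vehicle replicates 11 and 12, 14 of the 22 were lower (45% of all genes), with a median of -0.03. Gene length moved as well. Among tested genes outside the family, the shortest of 5 equal groups by implied length departed by -0.11 to 0.16 in BG136 samples, by 0.22 and 0.11 in vehicle replicates 11 and 12, and by -0.12 to 0.02 in the other vehicle samples. The longest of these groups departed by -0.04 to 0.10 in BG136 samples, by -0.29 and -0.16 in vehicle replicates 11 and 12, and by 0.02 to 0.09 in the other vehicle samples. Core ribosomal protein genes are short, with a median implied length of 795 bases against 3457 bases for all genes. With each sample's trend on length removed, 70 of the 86 members were lower, where 50.9% of all genes were. The member median was then -0.08, against -0.0018 for all genes.

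**Figure D4:**
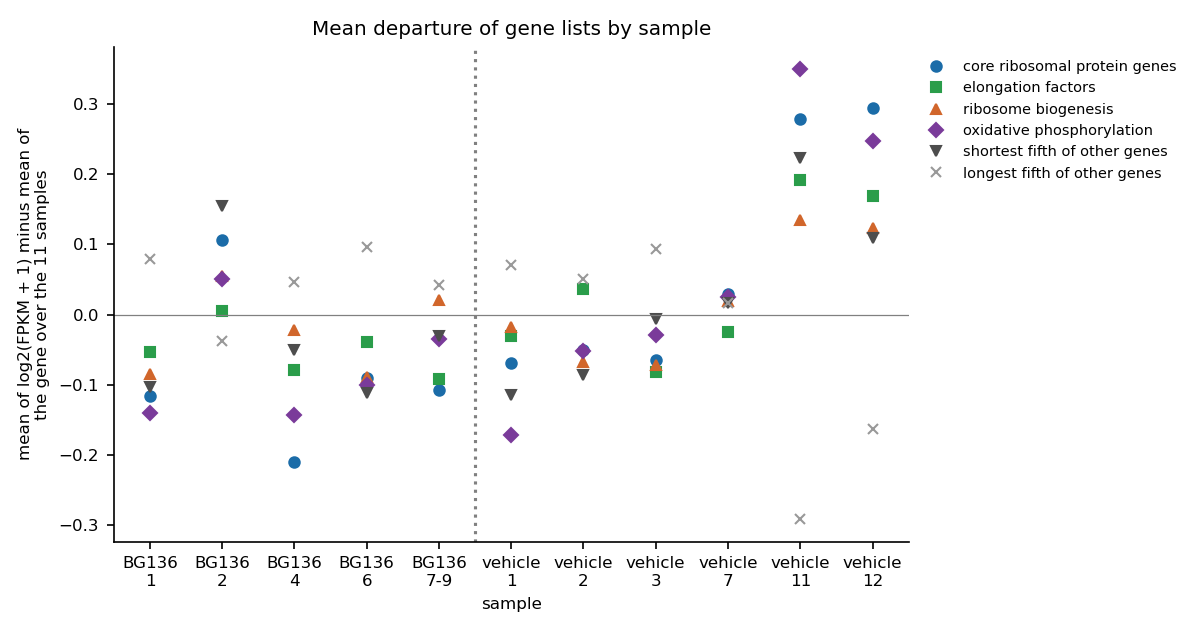
Mean departure (log2(FPKM + 1) minus each gene's mean over the 11 samples) of 6 gene groups by sample, BG136 left and vehicle right of the dotted line. Core ribosomal protein, elongation factor, biogenesis and oxidative phosphorylation genes are highest in vehicle 11 and 12, where the longest of 5 length groups of other genes is lowest; the shortest group is highest in vehicle 11 and next highest in BG136 2.

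Markers of other cell types varied between samples as well. Summed FPKM of 6 macrophage markers was 961 to 1559 in BG136 samples and 998 to 1332 in vehicle samples, with 1332 and 1125 in vehicle replicates 11 and 12. The 5 fibroblast markers summed to 867 to 1688 FPKM in BG136 samples and 932 to 1327 FPKM in vehicle samples, and the 5 T cell markers in the table to 22.4 to 73.5 and 42.7 to 61.1 FPKM. Skeletal muscle markers summed to 1.97 to 156 FPKM in BG136 samples and 1.54 to 223 FPKM in vehicle samples, with 127 and 1.54 in vehicle replicates 11 and 12. Adipocyte markers summed to 21.2 to 49.6 FPKM in BG136 samples and 54.2 to 86.8 FPKM in vehicle samples, so these sums did not overlap. Taken singly, 2 of the 4 adipocyte genes had every BG136 sample below every vehicle sample, as had 0.114% of all tested genes. The lowest limma adjusted p of the 4 was 0.978. The 3 neutrophil markers summed to 14.4 to 24.1 FPKM in BG136 samples and 9.18 to 30.9 FPKM in vehicle samples, and the 3 endothelial markers to 32.4 to 44.6 and 31.2 to 47.8 FPKM. Vehicle replicates 11 and 12 were the 2 lowest vehicle samples in both, at 9.18 and 16.1 FPKM for neutrophil and 31.2 and 31.6 FPKM for endothelial markers. Of 3 erythroid markers, the sum was 16.3 to 26.3 FPKM in BG136 and 15.1 to 37.0 FPKM in vehicle samples, and 3 B cell markers summed to at most 1.45 and 1.24 FPKM. The 5 proliferation genes summed to 385 to 443 FPKM in BG136 samples and 419 to 453 FPKM in vehicle samples. The part of any of these in the level of the family was not tested.

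Most other genes of protein synthesis were also lower. The elongation, initiation and biogenesis lists had medians nearer to 0 than that of the ribosomal protein genes. Farther from 0 was the median of 2 ribosomal protein fusions outside the naming rule, -0.23, and -0.12 without vehicle replicates 11 and 12. Of these 2 genes, 1 was lower at an unadjusted p under 0.05 (1.13% of all genes), also without those replicates (0.784%). Fau, a fusion outside the naming rule that releases Rps30, had 965 ± 161 FPKM in BG136 samples and 1078 ± 171 FPKM in vehicle samples, a difference of -0.16 that was -0.02 without vehicle replicates 11 and 12. Of 8 elongation factor genes tested, 7 were lower and 1 higher, with a median log2 difference of -0.12, and -0.02 without vehicle replicates 11 and 12. Eef1a1, which brings aminoacyl-tRNA to the ribosome, had 4196 ± 408 FPKM in BG136 and 4626 ± 263 FPKM in vehicle samples. Of 28 initiation factor and other TOP mRNA genes, 24 were lower (median -0.09, and -0.02 without those replicates). Among them was Rack1, a scaffold protein on the small subunit, at 1069 ± 81 against 1246 ± 113 FPKM. Its log2 difference of -0.22 was -0.14 without those replicates.

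Ribosome biogenesis genes, which act in the nucleolus, had a negative difference in 26 of 35 cases (median -0.05), and in 16 of 35 without vehicle replicates 11 and 12. Fbl, the methyltransferase of ribosomal RNA, had 143 ± 16 FPKM in BG136 samples and 161 ± 23 FPKM in vehicle samples, a difference of -0.17 that was -0.06 without those replicates. Of 11 regulators of ribosomal protein mRNA, 3 were lower and 8 higher (median 0.02, and -0.04 without vehicle replicates 11 and 12). Larp1 had 76.5 ± 6.1 and 70.9 ± 6.5 FPKM in BG136 and vehicle samples, and Myc, a driver of ribosome production, 88.6 ± 5.8 and 95.4 ± 11.8 FPKM. The log2 differences of Larp1 and Myc, 0.11 and -0.10, were 0.04 and -0.14 without vehicle replicates 11 and 12. No gene of these lists had an adjusted p under 0.05. In the initiation and TOP list, 3 genes (Eif3i, Rack1 and Eif3h) were lower at an unadjusted p under 0.05 (1.13% of all genes), and 0 without vehicle replicates 11 and 12 (0.784%).

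Members also differed from the family in single samples. The SD of log2 values over the 11 samples ran from 0.10 for Rpl4 to 0.33 for Rpl35a among core genes, with a median of 0.18, against a median of 0.15 over all tested genes. Taken relative to the family's median in each sample and each gene's own median, BG136 replicate 2 held 15 members over 0.25 away, 9 high and 6 low. The 6 low ones were Rpl15, Rpl3, Rpl31, Rpl36, Rpl37 and Rplp1. Of these 6, 5 were among the 14 members with an unadjusted p under 0.05, while 0 of the 9 high ones (Rpl13a, Rpl21, Rpl29, Rpl35, Rpl35a, Rps19bp1, Rps24, Rps27a and Rps3a1) were. BG136 replicate 2 is itself in that test, so this contrast follows in large part from how the genes were picked, and nothing is drawn from it. Rpl31, for example, had 501 FPKM in BG136 replicate 2 and 502 to 580 FPKM in the other BG136 samples, against 579 to 757 FPKM in vehicle samples. Rps19bp1, the binding protein, had 47.5 FPKM in BG136 replicate 2, and means of 34.8 ± 7.5 FPKM in BG136 samples and 34.3 ± 5.3 FPKM in vehicle samples. Rps24 was highest of all 11 samples in BG136 replicate 2, at 798 FPKM. Without BG136 replicate 2 the median over members was -0.21, where that of all genes was 0.009, and 37 members were lower at an unadjusted p under 0.05 (2.1% of all genes).

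Gene copies set BG136 libraries 7 and 9 apart from the other 10 libraries. Rps27rt, a copy of Rps27 on another chromosome, had 3.14 and 3.33 FPKM in BG136 libraries 7 and 9, against 63.5 to 92.4 FPKM in the other 10. Its share of the sum of Rps27 and Rps27rt was 0.56% in BG136 replicate 7-9 and 10.6% to 12.1% in the other samples. Its log2 difference between the groups, -0.91 (95% interval -2.25 to 0.43), rested on that sample and was -0.09 without it. In the GENCODE M21 transcripts of GRCm38, the 255 bases of the Rps27 coding sequence (chromosome 3) and its match in Rps27rt (chromosome 9) differed at 0 positions, so a read from the coding part cannot be given to one of them by its sequence. The shared coding sequence is shown for that reason.
Rps27 and Rps27rt: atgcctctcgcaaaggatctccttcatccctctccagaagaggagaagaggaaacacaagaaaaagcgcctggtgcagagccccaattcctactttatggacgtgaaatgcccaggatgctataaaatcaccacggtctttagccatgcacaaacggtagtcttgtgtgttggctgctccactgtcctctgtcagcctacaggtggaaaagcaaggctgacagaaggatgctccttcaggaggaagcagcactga

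Rpl37rt and Rpl6l showed a like pattern in smaller measure. Rpl37rt had 63.3 and 57.3 FPKM in BG136 libraries 7 and 9, against 102 to 158 FPKM in the other 10, and its match to the 294 coding bases of Rpl37 differed at 1 position. Bases 219 to 279 of that coding sequence are shown for Rpl37 (chromosome 15) and Rpl37rt (chromosome 5), with the differing base in capitals.
Rpl37: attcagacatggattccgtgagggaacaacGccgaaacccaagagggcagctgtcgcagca
Rpl37rt: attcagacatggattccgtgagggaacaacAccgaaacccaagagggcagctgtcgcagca

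Rpl6l had 57.6 and 60.1 FPKM in BG136 libraries 7 and 9, against 84.7 to 126 FPKM in the other 10, and 11 of 871 aligned positions differed from Rpl6. Of the 8 pseudogene rows outside the family, 3 had both BG136 libraries 7 and 9 below the other 10 libraries, Rpl27a-ps4 at under 1 FPKM throughout. Rps12-ps24 had a mean of 1.52 FPKM in BG136 libraries 7 and 9, against 8.01 to 14.6 FPKM in the other 10, and for Rpl34-ps1 the values were 14.2 against 28.7 to 42.0 FPKM. Among 8382 genes with a mean over 5 FPKM, 3 lay more than 2-fold below every other library in both BG136 libraries 7 and 9, taken on FPKM + 1. Rps12-ps24 and Rps27rt were among these 3.

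Rpl35a and Rpl7a, both core proteins of the large subunit, stood high in the same 2 libraries. Rpl35a had 763 and 764 FPKM in BG136 libraries 7 and 9, against 358 to 549 FPKM in the other 10. Rpl7a had 846 and 840 FPKM there, against 516 to 616 FPKM. These were the 2 core genes with a positive log2 difference, 0.11 (95% interval -0.28 to 0.50) for Rpl35a and 0.02 for Rpl7a, and both were negative without BG136 replicate 7-9, at -0.07 and -0.11. These 2 libraries also had the greatest depth, and its part in their apartness was not tested.

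**Figure D5:**
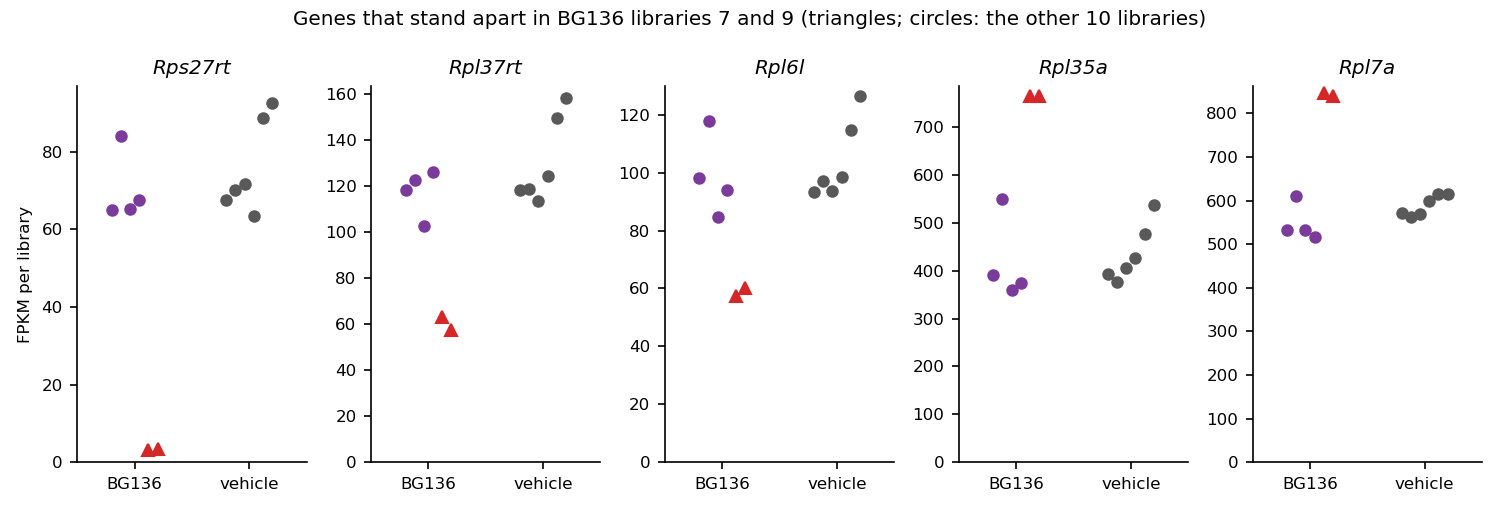
FPKM per library of 3 gene copies (Rps27rt, Rpl37rt, Rpl6l) and 2 core genes (Rpl35a, Rpl7a), BG136 left and vehicle right. Red triangles are BG136 libraries 7 and 9, which lie below the other 10 libraries for the copies and above them for Rpl35a and Rpl7a; circles are the other libraries.

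Rpl36al, Rps27l, Rpl22l1 and Rpl7l1 had lower mean FPKM than Rpl36a, Rps27, Rpl22 and Rpl7, the core genes they resemble. Rpl36al, whose match to the coding sequence of Rpl36a was 87.9% identical, had 222 ± 38 FPKM in BG136 samples and 240 ± 36 FPKM in vehicle samples, while Rpl36a had 393 ± 41 and 422 ± 61 FPKM. Rps27l, a p53-responsive paralog 77.3% identical to Rps27 over the aligned coding bases, had 29.1 ± 5.2 and 31.9 ± 6.9 FPKM in the same order. Rpl22l1, which can take the place of Rpl22, had 29.1 ± 6.5 FPKM in BG136 samples and 32.3 ± 8.8 FPKM in vehicle samples, and Rpl7l1, a protein related to Rpl7, 43.9 ± 3.4 and 46.2 ± 7.0 FPKM. All 8 tested paralogs had a negative difference, and 4 of 8 did without vehicle replicates 11 and 12.

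Rpl32l was the member with the smallest unadjusted p, on only 21 to 43 reads per library. It had 1.97, 2.85, 2.31, 2.23 and 1.86 FPKM in BG136 replicates 1, 2, 4, 6 and 7-9, and 2.61, 3.03 and 4.198 FPKM as lowest, median and highest in vehicle samples. BG136 replicate 2 was the one BG136 sample within the vehicle range. Its log2 difference was -0.36 (95% interval -0.59 to -0.14; limma adjusted p = 0.978) and -0.26 without vehicle replicates 11 and 12. It matched the Rpl32 coding sequence at all but 16 of 404 aligned positions, so reads of Rpl32, at 1490 ± 91 FPKM in BG136 and 1742 ± 230 FPKM in vehicle samples, could be counted to it. Rpl39l, a testis paralog of Rpl39, and Rpl3l, a heart and muscle paralog of Rpl3, lay under the filter, at 0.293 ± 0.218 and 0.162 ± 0.109 FPKM in BG136 samples and 0.202 ± 0.094 and 0.155 ± 0.204 FPKM in vehicle samples.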

How the data were processed

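A table of 15170 genes was deposited. Its values per library are FPKM, which the authors computed; the header names no unit, which was read from the values. Per the file headers, the authors ran DESeq2 without pairing; the deposited base means are a signal from it, and other columns hold the fold change as a ratio and as log2, with the p-value and q-value. The build was GRCm39 and the tools included HISAT2, HTSeq, Cufflinks, DESeq and Trimmomatic, per the submitters' processing notes. Versions, their order and how reads shared by gene copies were assigned are not given in the sources.

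Within a library each gene's FPKM is a whole multiple of 1 read's value, and 100% of reads recovered this way lay within 0.1 of a whole number. Depth of 14828786 to 33231037 reads left 859438 to 1808925 reads on all members together. Counting error of that total is small beside the spread between samples. It is not small for the lowest paralogs, with 21 to 43 reads per library for Rpl32l, 1 to 11 for Rpl39l and 0 to 18 for Rpl3l. BG136 libraries 7 and 9 gave a chi-square of 0.285 per gene over 13819 genes, against 7.88 to 57.4 in 29 other within-group pairs, and were averaged.

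Values were tested as log2(FPKM + 1), so differences understate the change of low genes, with limma 3.58.1 in R 4.3.3 (mean-variance trend, two-sided, Benjamini-Hochberg adjustment over all genes, threshold 0.05). The 11356 genes that reached an FPKM of 1 in 6 or more samples were tested. The fit was tested on simulated data with genes drawn independently and planted changes far larger than the family's median difference. That test therefore says nothing about small differences shared by a family. Coding sequences and matches came from GENCODE M21 (GRCm38) by local alignment with Biopython 1.88, and promoters from RefSeq (GRCm38.p6). Named genes were those with stated roles, all paralogs, the 3 highest members and the 3 lowest core members by level, the 5 with the smallest p in each direction, the 3 core genes of largest spread, and up to 4 genes of smallest p in each related list. Rpl31, Rps24 and other genes beside these were chosen after their values were seen. Members and lists were chosen with earlier results of these data known. Some genes, counted in every total, are not reported here by name or drawn in the plot of differences by gene.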

Additional observations from a re-analysis of the deposited data

Results flagged for a closer look

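In each of the 88 members the BG136 samples (n = 5) and the vehicle samples (n = 6) were examined for a sample far from the others of its group, and 25 of these 176 groups held one. Chance alone flags about 1 in 20 groups, and members of the family are not independent of each other. In 21 of the 25, BG136 replicate 2 was far above the other BG136 samples. The FPKM in that sample were 876 for Rpl10a, 1426 for Rpl13a, 522 for Rpl17, 530 for Rpl18, 161 for Rpl22, 693 for Rpl23, 1369 for Rpl23a and 738 for Rpl24. They were 1818 for Rpl35, 288 for Rpl36al, 1072 for Rpl4, 5177 for Rpl41, 662 for Rpl6, 1535 for Rps2, 798 for Rps24 and 701 for Rps25. For Rps27l, Rps3a1, Rps6, Rps9 and Rpsa they were 38.0, 1413, 730, 1122 and 1160. BG136 replicate 4 was far below the other BG136 samples for Rps28 (806 FPKM) and Rps29 (808 FPKM), and BG136 replicate 7-9 for Rps27rt (3.23 FPKM). Vehicle replicate 3 was far above the other vehicle samples for Rpl3l (0.545 FPKM), a paralog under the filter on low values. The cause of these departures was not tested.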

How the results depend on the processing

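With 24 alternatives, 0 members passed the threshold in any, and the median over members, over each subunit and over core genes was negative in all. Of 880 values of 40 named genes, counted in 22 of the alternatives, 817 had the sign given in the report. With 1 sample left out in turn, 81 to 85 members were lower, the member median ran from -0.212 (without BG136 replicate 2) to -0.117 (without vehicle replicate 12), and 4 (without BG136 replicate 4) to 37 (without BG136 replicate 2) were lower at an unadjusted p under 0.05 (0.854% and 2.1% of all genes). In these, Rpl21 ran from -0.101 to 0.0595, Rps19bp1 from -0.101 to 0.0829, Rpl35a from -0.0705 to 0.202, Rpl7a from -0.106 to 0.0709, Rpl7l1 from -0.109 to 0.000165 and Rpl10 from -0.0798 to 0.00945. Leaving out both vehicle 11 and 12 gave 4 members lower at that p (0.784% of all genes) and the values 0.0743 for Rpl10, 0.108 for Rpl21, 0.0829 for Rpl22l1, 0.0234 for Rpl36a, 0.00749 for Rpl36al, 0.0144 for Rpl38, 0.0592 for Rpl7l1, 0.023 for Rplp2, 0.031 for Rps19, 0.0887 for Rps27, 0.0786 for Rps27a, 0.0562 for Rps27l, 0.0294 for Rps3a1 and 0.0181 for Rps4x. With BG136 7-9 left out too (chosen after seeing the data), 54 members were lower (46.2% of all genes), with a median of -0.0266. Of these, 3 were lower at that p (0.731% of all genes).

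With the length trend removed, the sign turned for Rpl10 (0.0416), Rpl21 (0.0274), Rpl36a (0.023), Rpl36al (0.00297), Rpl38 (0.00402), Rplp2 (0.0138), Rps27 (0.0473) and Rps3a1 (0.0276). Rescaling to the same FPKM sum gave 0.0079 for Rpl10, 0.0497 for Rpl21 and 0.0054 for Rps3a1 with a median of -0.105 (all genes 0.0639). The sum over non-members gave 0.0265 for Rpl21 and 23 members lower at that p (1.01% of all genes). Median-ratio rescaling gave -0.001 for Rps19bp1. voom gave -0.00203 for Rpl7a and -0.00444 for Rps19bp1, with 28 members lower at that p (1.71% of all genes). Sample weights gave 0.0193 for Rpl10 and 0.028 for Rpl21, with 29 (1.96%), and 12 separate libraries 0.0184 for Rpl21, with 31 (1.96%). The cause of these shifts was not tested.

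The replicate block on numbers 1, 2 and 7 (3 samples a group) gave 51 members lower, 0 at that p, as did the same 6 samples without a block (chosen after seeing the data), with a median of -0.0276. Of all genes, 42% were lower with and without the block, and 0.801% and 0.493% were lower at that p. With the block 1 member was higher at that p (1.71% of all genes), and without it 0 were (1.09%). The block changed no call at the threshold. The deviations of same-numbered samples had correlations of 0.411, -0.237 and 0.187, not every sample correlated best with its own number, and the numbers were not taken to pair samples. With the block, Rpl10 was at 0.144, Rpl11 0.0366, Rpl21 0.167, Rpl22 0.0895, Rpl22l1 0.147, Rpl36a 0.0521, Rpl36al 0.0822, Rpl38 0.11, Rpl39 0.0468, Rpl7l1 0.122, Rplp2 0.0851, Rps19 0.0915, Rps27 0.178, Rps27a 0.213, Rps27l 0.196, Rps3a1 0.0797 and Rps4x 0.0487. edgeR's and DESeq2's count tests were not run, since the deposited unit is FPKM. Depth limits the low paralogs most, with at least 859438 reads on all members together in each library. Reads shared by gene copies limit Rps27rt, Rpl37rt, Rpl6l and Rpl32l.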
